A study of Danio rerio with 18 samples.

Results

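Keratins are the intermediate filament proteins of epithelial cells. A type I chain pairs with a type II chain, and the pair assembles into filaments that are anchored at desmosomes and hemidesmosomes and give the skin its mechanical strength. Zebrafish larvae have a thin epidermis whose outer sheet derives from the enveloping layer of the embryo, and this larval skin is remodelled into a stratified, scaled epidermis during the larva-to-juvenile transition.

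The subject here is a group of 10 larval and juvenile epidermal keratins. These 10 of the 31901 genes counted were followed by name through every library: *krt4*, *krt5*, *krt8*, *cyt1*, *cyt1l*, *krt91*, *krt92*, *krt15*, zgc:158846 and zgc:77517. Each name matched 1 identifier, and all 10 genes passed the filter on low counts in every comparison. At 4 days past fertilization (dpf) the data hold 2 pools of 20 embryos each of wild-type AB, *kif7*co63/+ and *kif7*co63/co63 zebrafish. The paper states 3 such pools per genotype. At 6 weeks past fertilization (wpf) RNA was taken from 3 single fish in each of 4 groups. These were AB, *kif7*co63/+, and *kif7*co63/co63 either non-scoliotic or scoliotic, which gives 18 libraries in 7 groups. The co63 allele is a short indel in *kif7*, a kinesin of the hedgehog pathway, made with CRISPR-Cas9 and kept as a single line with outcrosses to AB. The homozygous stock was raised by in-crossing homozygotes, so genotype and family background cannot be told apart. The homozygous embryo pools carry no curvature label, and the same 2 pools were set against both homozygous groups of fish. Every age comparison sets pools of 20 embryos against single fish, so age and pooling cannot be told apart. The tests took pools and fish to vary alike. Libraries were made from whole animals, in which fewer cells of a type and less RNA per cell cannot be told apart.

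Of the members, 6 are type I keratins (*cyt1*, *cyt1l*, *krt91*, *krt92*, *krt15* and zgc:77517) and 4 are type II (*krt4*, *krt5*, *krt8* and zgc:158846). In the GRCz11 coordinates of the count table, 4 type I members lie close together on the minus strand of chromosome 19. These are *krt92* (5349656 to 5352199), *cyt1l* (5356421 to 5358455), *cyt1* (5362420 to 5364649) and *krt91* (5378563 to 5380770), with the keratin *krt17*, not a member, from 5367330 to 5372572 between the last 2. A further 3 members lie together on chromosome 6, *krt4* (39308498 to 39313027, minus strand), zgc:158846 (39336731 to 39344259, minus strand) and zgc:77517 (39360377 to 39365467, plus strand). The type II genes *krt5* (10173196 to 10177458) and *krt8* (10249626 to 10254288) are both on the minus strand of chromosome 23, and *krt15* (11515778 to 11518469, minus strand) stands alone among the members on chromosome 11. Related keratin genes may have shared reads, and whether strand was used in counting is not stated in the sources used here, so the split between similar neighbours is uncertain.

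Total counts ran from 44503110 to 69698533 per library, and libraries of the same group always differed by more than sampling noise. The 2 *kif7*co63/co63 embryo pools stood apart from each other, with a chi-square per gene of 502 against 28.5 to 159 for the other pairs of libraries within a group. Of 21691 genes, 238 (1.1%) differed at least 10-fold between these 2 pools. The level of *kif7* was 41.7 to 47.7 CPM in AB fish and 23.6 to 32.3 CPM in the other fish, and the genotypes overlapped at 4 dpf (10.8 to 21.5 CPM). Epidermal markers were present in every library, with a summed level of superficial and pan-epidermal genes between 1314 and 2830 CPM. Among these *epcam* was at 0 in AB pools, in *kif7*co63/co63 pools and in both groups of *kif7*co63/co63 fish. The basal marker *itga6b* was at 0 in AB and *kif7*co63/+ pools and in AB and scoliotic fish. For both genes a count of 0 need not mean that the RNA was absent. Levels are given as CPM, counts brought to a common library size with TMM scaling over the 18 libraries, and levels of different genes are compared as CPM per kilobase of the deposited gene length.

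Summed over the 10 genes, the keratin level was 6875 to 14013 CPM in the 6 embryo pools and 2531 to 6149 CPM in the 12 juvenile fish. AB fish had the lowest sums at 6 wpf, 2531 to 3326 CPM, and did not overlap with *kif7*co63/+ (5096 to 5984), non-scoliotic (4099 to 5732) or scoliotic fish (5111 to 6149). The make-up changed as well as the total. *cyt1* and *cyt1l* together made up 44.6% to 60.3% of the summed level in the pools and 1.16% to 10.3% in the fish. *krt8*, *krt91* and *krt92* made up 23.9% to 45.6% in the pools and 78.9% to 97.8% in the fish. The 3 chromosome 6 genes made up 18.8% to 21.3% in AB and *kif7*co63/+ pools, 11.3% and 0.604% in the 2 *kif7*co63/co63 pools, 0.0599% to 0.0735% in non-scoliotic fish, and 6.47% to 14.5% in the other 3 groups of fish.

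**Figure D1:**
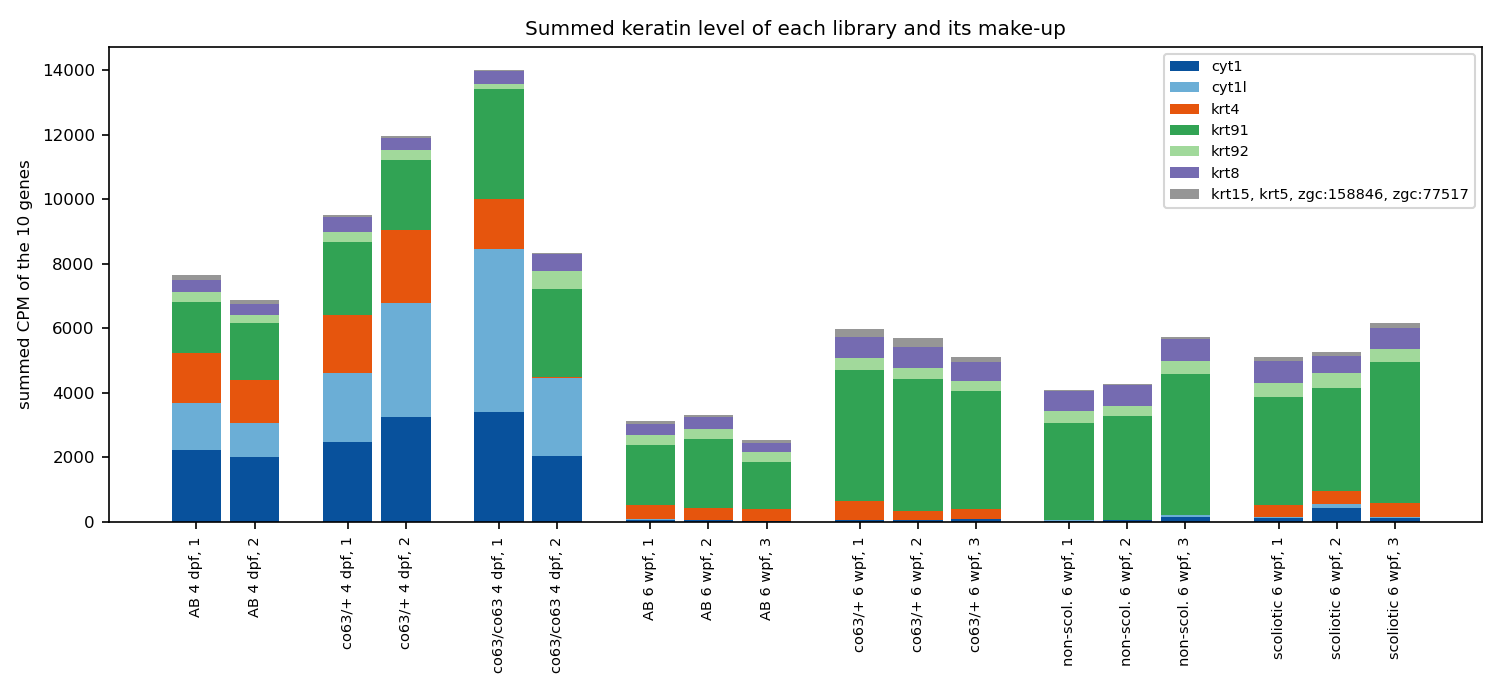
Summed CPM of the 10 keratin genes in each library, stacked by gene, for 6 embryo pools at 4 dpf and 12 single fish at 6 wpf (co63/+ and co63/co63 are the *kif7* genotypes; "non-scol." and "scoliotic" are *kif7*co63/co63 fish). The *cyt1* and *cyt1l* segments shrink from 44.6% to 60.3% of the bar in the pools to 1.16% to 10.3% in the fish, and *krt91* is the largest segment in every fish.

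The order of the genes, per kilobase, differed between the ages. In AB pools the mean was highest for *cyt1* at 1267 CPM per kilobase, followed by *krt91* at 962, *cyt1l* at 805 and *krt4* at 576, of which only *krt91* and *cyt1l* overlapped between neighbours in the order. Much lower came *krt92* (141), *krt8* (119), *krt15* (39.3), zgc:158846 (31), zgc:77517 (12.3) and *krt5* (0.371). In AB fish *krt91* led at 1037 CPM per kilobase, *krt4* (156) and *krt92* (154) overlapped, and *krt8* (112), *krt15* (54.3) and *cyt1* (34.5) followed without overlap. *cyt1l* had dropped to 2.9 CPM per kilobase, overlapping with zgc:158846 at 5.04, and *krt5* (0.252) and zgc:77517 (0.142) were lowest and overlapped. *krt91* ranked first in all 4 groups of fish, at 1037 to 2246 CPM per kilobase, and *krt5* ranked last in all groups except AB and non-scoliotic fish, where zgc:77517 did.

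**Figure D2:**
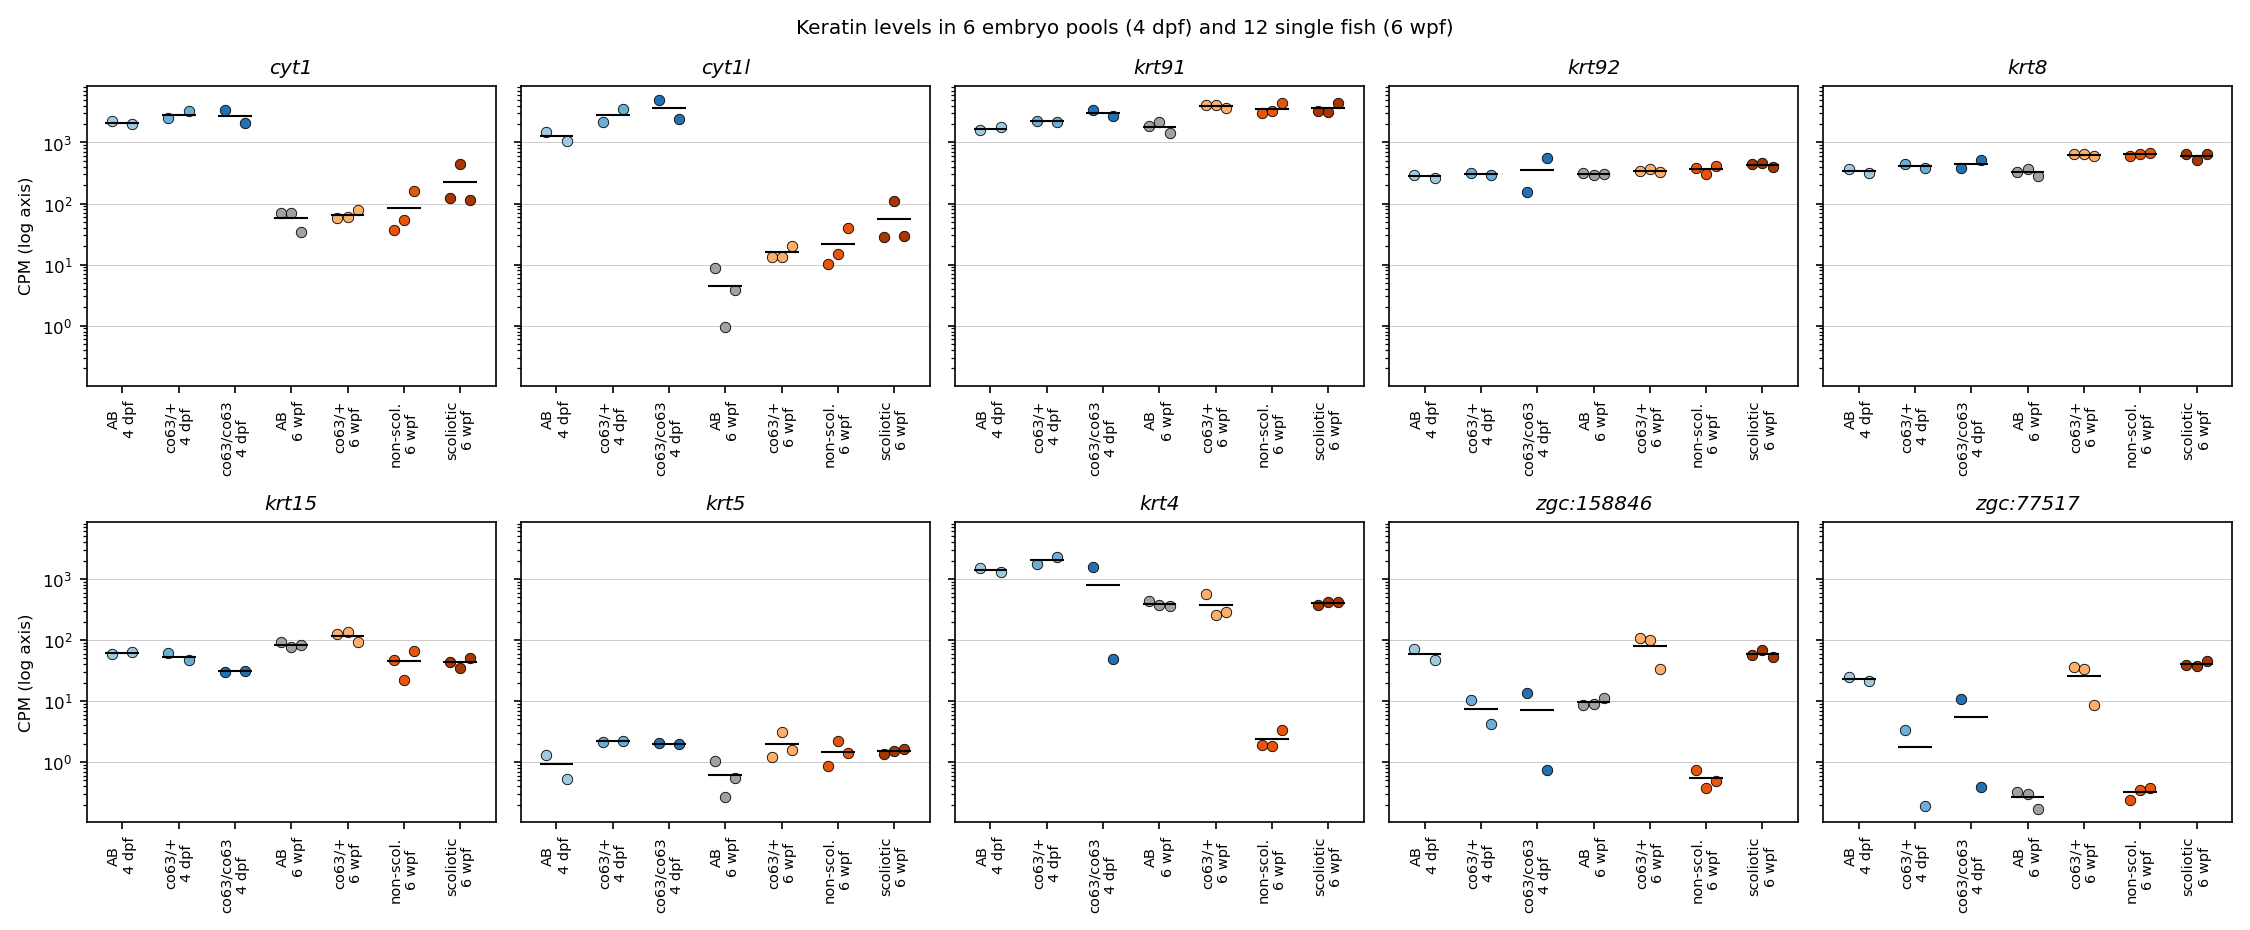
CPM (log axis) of each keratin gene in every library, 1 panel per gene; each point is 1 pool of embryos (4 dpf) or 1 fish (6 wpf), and lines are group means. *cyt1* and *cyt1l* separate the ages completely (2023 to 3413 against 34.1 to 437 CPM for *cyt1*), whereas *krt4*, zgc:158846 and zgc:77517 are low in all 3 non-scoliotic fish. zgc:77517 is as low in the AB fish (0.172 to 0.329 CPM), in 1 *kif7*co63/+ pool (0.189) and in 1 *kif7*co63/co63 pool (0.386).

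Change from 4 dpf to 6 wpf in each genotype: Embryo pools and juvenile fish of the same genotype were compared by the quasi-likelihood test of edgeR, and p-values were adjusted over every gene tested (Benjamini-Hochberg, threshold 0.05). In AB zebrafish, 6 of the 10 keratins changed, 1 higher and 5 lower at 6 wpf (of all genes tested, 58.6% passed, 30.3% higher and 28.2% lower). In *kif7*co63/+ zebrafish 8 changed, 5 higher and 3 lower (53.8% of all genes, 28.3% higher and 25.5% lower). In non-scoliotic fish 4 changed, all lower (23% of all genes, 10.9% higher and 12.1% lower), and in scoliotic fish 2 changed, both lower (19% of all genes, 9.88% higher and 9.15% lower). Median log2 fold changes of the members were −1.21, 0.39, −2.09 and 0.31 in these comparisons, beside −0.00, 0.01, −0.05 and −0.01 over all genes. In non-scoliotic and scoliotic fish the number of keratins called, like that of all genes called, depended on which *kif7*co63/co63 pool was kept. Where 1 pool was left, its variation was taken to be like that of the fish.

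**Figure D3:**
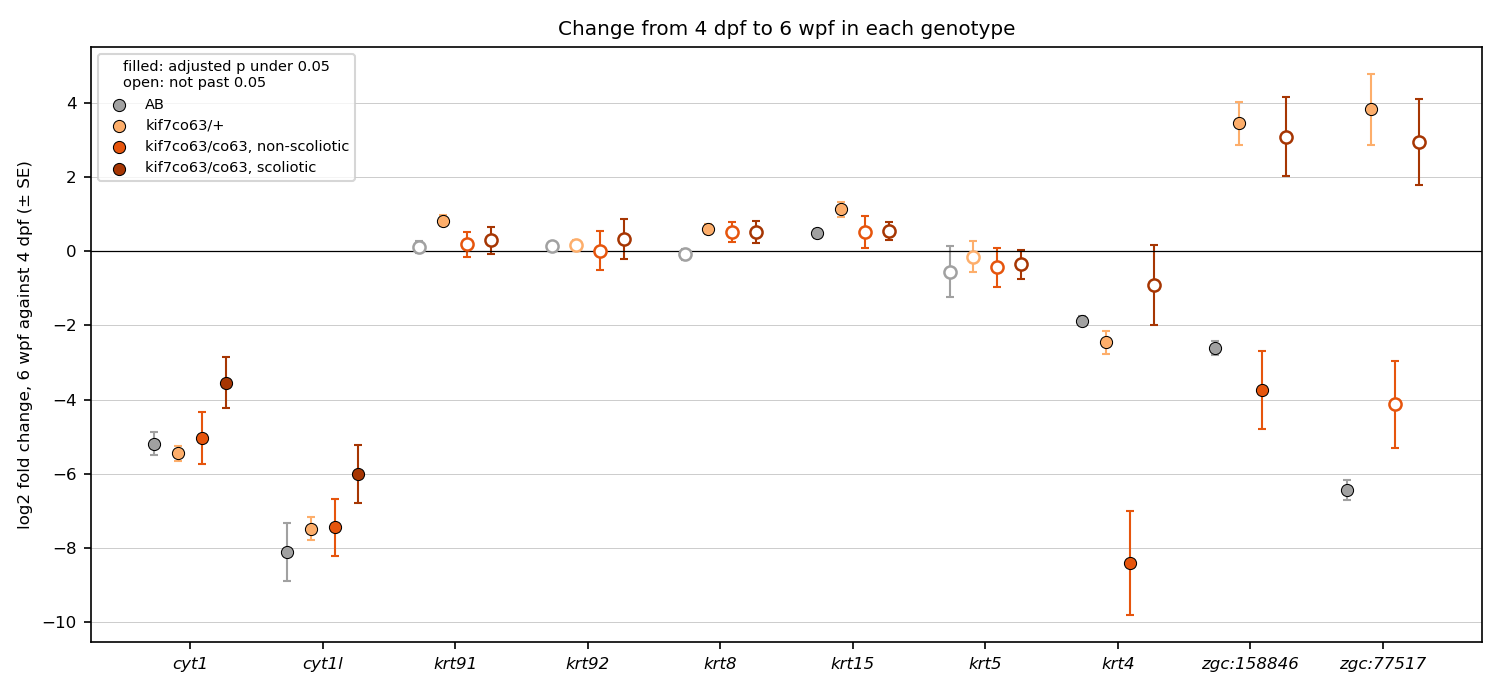
Log2 fold change from 4 dpf to 6 wpf (± SE) of each keratin in AB, *kif7*co63/+, non-scoliotic and scoliotic *kif7*co63/co63 zebrafish; filled points have an adjusted p under 0.05 and open points do not. *cyt1* (−5.45 to −3.54) and *cyt1l* (−8.11 to −6.01) fell in all 4 comparisons, and zgc:158846 and zgc:77517 lie on opposite sides of 0 in AB and *kif7*co63/+.

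*cyt1* and *cyt1l*, annotated as type I cytokeratins of the enveloping layer, fell in every genotype. They were the 2 members of 10 whose levels did not overlap between all 6 pools and all 12 fish, which was also so for 19.3% of all genes tested (10.6% lower in the fish). *cyt1* was 2216 and 2023 CPM in AB pools, 2481 and 3235 in pools of *kif7*co63/+, and 3413 and 2047 in pools of *kif7*co63/co63. At 6 wpf it was 69.5, 69.4 and 34.1 CPM in AB, 59, 59.4 and 77.4 in *kif7*co63/+, 37.2, 53.5 and 160.2 in non-scoliotic and 123, 437 and 115 in scoliotic fish. The lowest pool was thus above the highest fish, which was scoliotic fish 2. *cyt1* was 36.5-fold lower at 6 wpf in AB (log2 fold change −5.19, SE 0.31, edgeR adjusted p = 1.02e-05) and 43.8-fold lower in *kif7*co63/+ (−5.45, SE 0.20, adjusted p = 5.79e-07). It was 33-fold lower in non-scoliotic (−5.04, SE 0.71, adjusted p = 0.00675) and 11.7-fold lower in scoliotic fish (−3.54, SE 0.69, adjusted p = 0.02). The call in scoliotic fish was lost without scoliotic fish 1 (adjusted p = 0.0631) or fish 3 (0.0676) and with the replicate block (0.0552).

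*cyt1l*, the neighbouring like gene, changed more. It was 1473 and 1041 CPM in AB pools, 2145 and 3532 in pools of *kif7*co63/+, and 5034 and 2402 in pools of *kif7*co63/co63. In fish it was 8.78, 0.961 and 3.83 CPM in AB, 13.3, 13.5 and 20.5 in *kif7*co63/+, 10.3, 15.1 and 39.2 in non-scoliotic and 28.6, 108 and 29.4 in scoliotic fish. Every AB fish was below every fish of the 3 *kif7* groups. *cyt1l* was 276-fold lower at 6 wpf in AB (−8.11, SE 0.79, edgeR adjusted p = 0.000102), 180.4-fold in *kif7*co63/+ (−7.49, SE 0.31, adjusted p = 8.55e-07), 174-fold in non-scoliotic (−7.45, SE 0.77, adjusted p = 0.00343) and 64.5-fold in scoliotic fish (−6.01, SE 0.79, adjusted p = 0.00828). The test of the difference between the age change in a *kif7* group and that in AB passed for neither gene in any group; in scoliotic fish this difference was 1.60 (SE 0.85, adjusted p = 0.236) for *cyt1* and 2.05 (SE 1.09, adjusted p = 0.232) for *cyt1l*.

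*krt91* and *krt92*, the other type I members on chromosome 19, stayed high at both ages. *krt91* was 1594 to 3414 CPM in the 6 pools (median 2221) and 1455 to 4373 CPM in the 12 fish (median 3280), and the ages overlapped. It was higher at 6 wpf in *kif7*co63/+ (log2 fold change 0.83, SE 0.14, edgeR adjusted p = 0.00121) and had values of 0.12 (SE 0.16, adjusted p = 0.56) in AB, 0.19 (SE 0.34, adjusted p = 0.713) in non-scoliotic and 0.30 (SE 0.36, adjusted p = 0.591) in scoliotic fish. *krt92* was 156 to 557 CPM in the pools and 296 to 459 CPM in the fish, with log2 fold changes of 0.02 to 0.33, none past the threshold. Its widest spread was between the 2 *kif7*co63/co63 pools, at 156 and 557 CPM. Without pool 2 its age change was 1.24 in non-scoliotic and 1.50 in scoliotic fish, and without pool 1 it was −0.63 and −0.37. So 2 of the 4 members on chromosome 19 fell in every genotype and 2 were lower at 6 wpf in none.

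*krt8*, a type II keratin of simple and surface epithelia, was 318 to 510.0 CPM in the pools and 280.0 to 684 CPM in the fish. Its age change was 0.60 in *kif7*co63/+ (SE 0.14, edgeR adjusted p = 0.007), −0.08 in AB (SE 0.15, adjusted p = 0.682), 0.52 in non-scoliotic (SE 0.27, adjusted p = 0.213) and 0.51 in scoliotic fish (SE 0.30, adjusted p = 0.267). Without *kif7*co63/+ pool 2 the call was lost (adjusted p = 0.0595). *krt15*, a type I keratin known in mammals from the basal epidermis, was 58.3 and 63 CPM in the AB pools and 93.8, 75.7 and 82.1 CPM in the AB fish. It was higher at 6 wpf in AB (0.48, SE 0.13, adjusted p = 0.0141) and in *kif7*co63/+ (1.13, SE 0.20, adjusted p = 0.00188), where the pools had 60.5 and 46.5 CPM and the fish 124, 137 and 91.4. The values in non-scoliotic and scoliotic fish were 0.53 (SE 0.43, adjusted p = 0.406) and 0.54 (SE 0.24, adjusted p = 0.153). The AB call was lost without AB pool 1 (adjusted p = 0.0551), with library totals (0.105) and in a fit of all 18 libraries (0.24).

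*krt5*, which in mammals marks the basal epidermis, was the scarcest member, with 16 to 156 reads per library. It was 0.528 to 2.25 CPM in the pools and 0.27 to 3.12 CPM in the fish, and none of its 4 age changes, −0.55 to −0.15, passed the threshold (lowest edgeR adjusted p = 0.512).

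The 3 members on chromosome 6 did not follow age in the same way in each genotype. *krt4*, a type II keratin of the surface epidermis, was 1528 and 1316 CPM in the AB pools and 429.8, 371 and 355 CPM in the AB fish. In *kif7*co63/+ it was 1777 and 2276 CPM in the pools and 562, 254 and 288 CPM in the fish. In *kif7*co63/co63 pool 1 it was 1557 CPM and in pool 2 49.2 CPM, in non-scoliotic fish 1.91, 1.83 and 3.36 CPM, and in scoliotic fish 373, 426 and 427 CPM. Pool 2 thus lay between the non-scoliotic fish and every other library, and the scoliotic fish lay within the range of the AB and *kif7*co63/+ fish. *krt4* fell by 1.87 on the log2 scale in AB (SE 0.13, edgeR adjusted p = 2.18e-05), by 2.46 in *kif7*co63/+ (SE 0.32, adjusted p = 0.000318) and the change was −8.41 in non-scoliotic fish (SE 1.41, adjusted p = 0.0106). The change in non-scoliotic fish was −4.41 without *kif7*co63/co63 pool 1 and −9.36 without pool 2. In scoliotic fish the value was −0.91 (SE 1.09, adjusted p = 0.59). It was −1.90 without *kif7*co63/co63 pool 2 and 3.05 without pool 1, so its direction rested on which pool was used. In the fit of all 18 libraries the AB call was lost (−1.88, adjusted p = 0.0515).

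zgc:158846 is a type II gene, and zgc:77517 is named *krt18b* in a reference table of gene names, a type I relative of the keratin that pairs with keratin 8 in simple epithelia. zgc:158846 was 71 and 47.8 CPM in the AB pools and 8.68, 8.93 and 11.4 CPM in the AB fish, but 10.5 and 4.19 CPM in the *kif7*co63/+ pools and 107, 100 and 33.6 CPM in the *kif7*co63/+ fish. It was 13.8 and 0.755 CPM in the *kif7*co63/co63 pools, 0.754, 0.382 and 0.486 CPM in non-scoliotic and 56.8, 68.8 and 52 CPM in scoliotic fish. It was thus lower in fish than in pools in AB (−2.61, SE 0.20, edgeR adjusted p = 3.52e-05) and higher in *kif7*co63/+ (3.45, SE 0.57, adjusted p = 0.00123). Non-scoliotic fish were lower than the *kif7*co63/co63 pools, which carry no curvature label (−3.74, SE 1.06, adjusted p = 0.0496). In scoliotic fish the value was 3.09 (SE 1.07, adjusted p = 0.0911), which became 6.28 without *kif7*co63/co63 pool 1 and 2.13 without pool 2. This change was called by DESeq2 (3.09, adjusted p = 0.043) and in the fit of all 18 libraries (3.03, edgeR adjusted p = 0.00889). The call in non-scoliotic fish was lost without *kif7*co63/co63 pool 1 (−0.51, adjusted p = 0.657) and without any 1 of the 3 fish (adjusted p = 0.0997 to 0.135), and with the replicate block (−2.67, adjusted p = 0.0658).

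zgc:77517 went from 25.1 and 21.5 CPM in the AB pools to 0.329, 0.303 and 0.172 CPM in the AB fish, where 12 to 19 reads per fish were counted. In *kif7*co63/+ it went the other way, from 3.42 and 0.189 CPM to 36.2, 32.9 and 8.69 CPM. The *kif7*co63/co63 pools had 10.8 and 0.386 CPM, the non-scoliotic fish 0.241, 0.344 and 0.37 CPM, and the scoliotic fish 39, 38.2 and 46.1 CPM. It was thus near its lowest level in AB and non-scoliotic fish alike, and the 2 homozygous pools did not resemble each other. zgc:77517 fell by 6.44 on the log2 scale in AB (SE 0.28, edgeR adjusted p = 2.04e-06) and rose by 3.83 in *kif7*co63/+ (SE 0.95, adjusted p = 0.0092). The values were −4.13 in non-scoliotic (SE 1.18, adjusted p = 0.0506) and 2.95 in scoliotic fish (SE 1.16, adjusted p = 0.122). Without *kif7*co63/co63 pool 2 they were −5.07 and 1.96, and without pool 1 they were −0.31 and 6.71. The fall in non-scoliotic fish thus rested on pool 1. It was called by DESeq2 (adjusted p = 0.000748) but not with the replicate block (−2.90, edgeR adjusted p = 0.175). The changes in non-scoliotic and scoliotic fish were both called in the fit of all 18 libraries (adjusted p = 0.00652 and 0.0385).

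The age changes of these 3 genes also differed between groups when the difference itself was tested in 1 fit of the 18 libraries. Relative to AB, the age change in *kif7*co63/+ was 6.07 higher for zgc:158846 (SE 1.12, edgeR adjusted p = 0.00479) and 10.28 higher for zgc:77517 (SE 1.65, adjusted p = 0.002). These were 2 of the 10 members, against 7.46% of all genes tested. In non-scoliotic fish the difference was −6.53 for *krt4* (SE 1.21, adjusted p = 0.00433), 1 of the 10 members (13.6% of all genes). In scoliotic fish it was 5.64 for zgc:158846 (SE 1.11, adjusted p = 0.0053) and 9.33 for zgc:77517 (SE 1.60, adjusted p = 0.00266), again 2 of 10 (13.9% of all genes). The 3 contrasts share the AB libraries, and the last 2 also share the homozygous pools. Without *kif7*co63/co63 pool 1, which left 1 homozygous pool, the difference for *krt4* in scoliotic fish was 4.94 and that for zgc:77517 in non-scoliotic fish 6.15. Leaving out 1 library in turn gave 2 calls in *kif7*co63/+, 1 to 3 in non-scoliotic and 2 to 4 in scoliotic fish.

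Differences between genotypes at 6 wpf: *kif7*co63/+ fish had 7 keratins higher than AB fish and 0 lower (of all genes, 36.2% passed, 18.6% higher and 17.6% lower). In non-scoliotic fish 2 were higher and 2 lower than in AB (43.1% of all genes, 21.2% higher and 21.9% lower), and in scoliotic fish 7 were higher and 1 lower (42.1% of all genes, 19.2% higher and 23% lower). The 3 comparisons share the AB fish. Leaving out 1 library gave 4 to 6 calls in *kif7*co63/+, 4 to 5 in non-scoliotic and 6 to 8 in scoliotic fish.

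**Figure D4:**
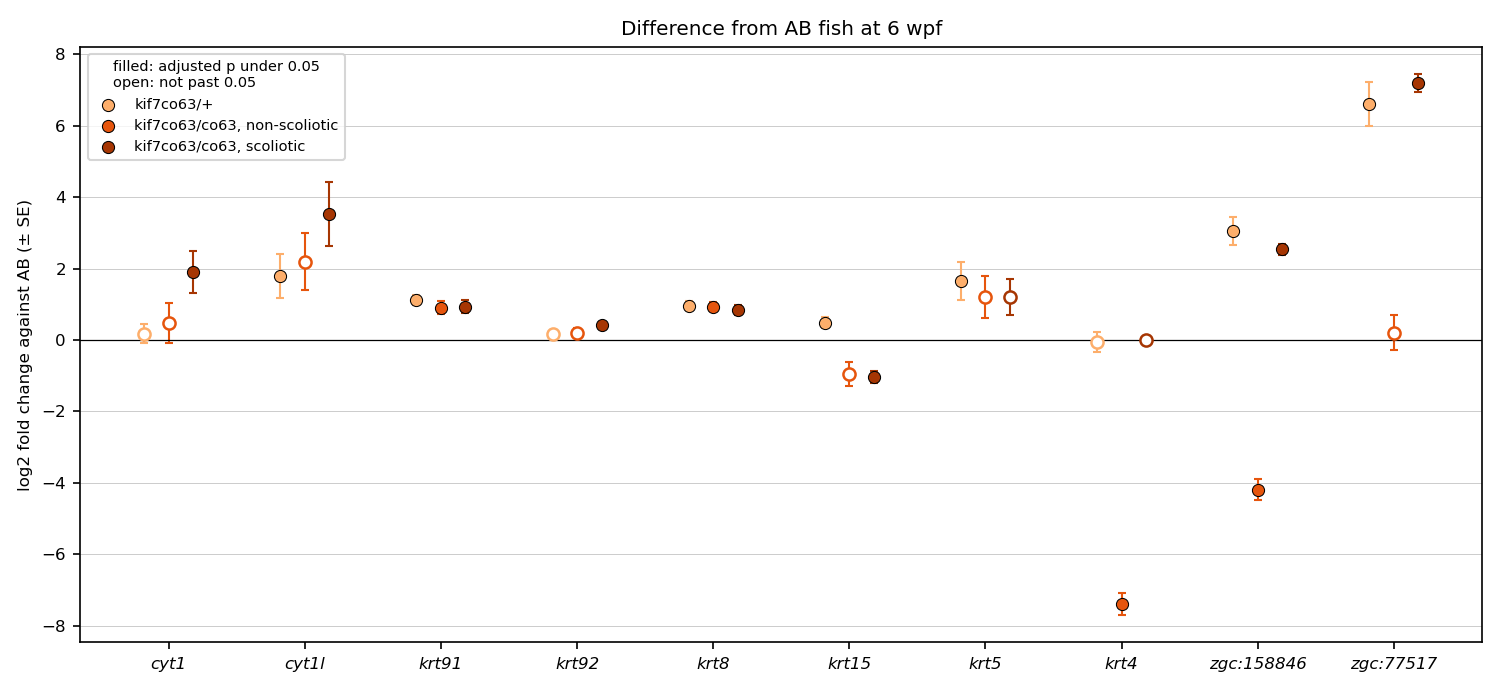
Log2 fold change (± SE) of each keratin in *kif7*co63/+, non-scoliotic and scoliotic *kif7*co63/co63 fish against AB fish at 6 wpf (n = 3 fish per group); filled points have an adjusted p under 0.05 and open points do not. *krt8* (0.84 to 0.96) and *krt91* (0.91 to 1.12) are higher in all 3 groups, and the 3 chromosome 6 genes run from −7.40 (*krt4*, non-scoliotic) to 7.20 (zgc:77517, scoliotic).

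*krt8* and *krt91* were higher than in AB in all 3 *kif7* groups. *krt8* was 328, 369 and 280.0 CPM in AB, 652, 646 and 595 in *kif7*co63/+, 602, 645 and 684 in non-scoliotic and 659.6, 517 and 658 in scoliotic fish, without overlap between AB and the rest. Its log2 fold changes against AB were 0.96 (SE 0.13, edgeR adjusted p = 0.00103), 0.94 (SE 0.13, adjusted p = 0.00151) and 0.84 (SE 0.15, adjusted p = 0.00428). *krt91* was 1870, 2134 and 1455 CPM in AB, 4082, 4086 and 3653 in *kif7*co63/+, 3021, 3220 and 4363 in non-scoliotic and 3339, 3183 and 4373 in scoliotic fish, again without overlap. Its log2 fold changes were 1.12 (SE 0.15, adjusted p = 0.00115), 0.91 (SE 0.19, adjusted p = 0.00807) and 0.93 (SE 0.18, adjusted p = 0.0071). Scoliotic and non-scoliotic fish had nearly level values of both genes, with log2 fold changes of −0.07 (SE 0.12, adjusted p = 0.949) for *krt8* and 0.05 (SE 0.19, adjusted p = 0.977) for *krt91*. Over the 12 fish the log2 CPM of the 2 genes had a Pearson r of 0.96 and a Spearman rho of 0.86, as a description of libraries that also differ in genotype and tissue make-up.

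*krt92* was higher than in AB in scoliotic fish, at 447, 459 and 396 CPM against 318, 296 and 309 in AB (0.42, SE 0.09, edgeR adjusted p = 0.0108), a call that was lost in a fit of all 18 libraries (0.50, adjusted p = 0.217). It was 347, 367 and 328 CPM in *kif7*co63/+ (0.18, SE 0.10, adjusted p = 0.199) and 377, 309 and 415 CPM in non-scoliotic fish (0.21, SE 0.12, adjusted p = 0.211). Between scoliotic and non-scoliotic fish its log2 fold change was 0.25 (SE 0.12, adjusted p = 0.789), so the groups were not shown to differ. *krt15* divided the *kif7* groups. It was 93.8, 75.7 and 82.1 CPM in AB, and was higher in *kif7*co63/+ (0.49, SE 0.16, adjusted p = 0.0461) but lower in scoliotic fish, at 43.4, 35.2 and 51.2 CPM (−1.03, SE 0.16, adjusted p = 0.00259). In non-scoliotic fish it was 47, 22.4 and 65.4 CPM (−0.95, SE 0.34, adjusted p = 0.0613), and the call was reached with DESeq2 (−0.98, adjusted p = 0.00198), library totals (0.0429), the replicate block (0.042), the fit of all 18 libraries (0.0227), and without non-scoliotic fish 2 (−0.65, adjusted p = 0.0263) or fish 3 (−1.34, adjusted p = 0.0247). The *kif7*co63/+ call was lost in 5 of the 6 fits that left out a fish (adjusted p = 0.063 to 0.137), and with RLE scaling (0.0523), library totals (0.0674), the replicate block (0.0593) and all 18 libraries (0.251).

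Of the enveloping layer genes, *cyt1l* was lowest in AB fish, without overlap with the other groups, and *cyt1* in AB overlapped with *kif7*co63/+ and non-scoliotic fish. *cyt1l* was higher than in AB in *kif7*co63/+ (1.80, SE 0.61, edgeR adjusted p = 0.0484) and in scoliotic fish (3.54, SE 0.90, adjusted p = 0.0188), and was 2.20 (SE 0.81, adjusted p = 0.065) in non-scoliotic fish. The *kif7*co63/+ call was lost in 4 of the 6 fits that left out a fish, with DESeq2 (adjusted p = 0.0783), with library totals (0.057) and in the fit of all 18 libraries (0.086). The scoliotic call was lost without AB fish 3 (adjusted p = 0.0725) and with the replicate block (0.0766), and *cyt1l* was called in non-scoliotic fish without AB fish 1 (3.10, adjusted p = 0.0401) and in the fit of all 18 libraries (2.25, 0.0235). *cyt1* was higher in scoliotic fish (1.90, SE 0.59, adjusted p = 0.0386), a call that was lost without any 1 of the AB fish (adjusted p = 0.0856 to 0.116). Without scoliotic fish 2, the highest of its group, the change was 0.97 (adjusted p = 0.0439). In *kif7*co63/+ *cyt1* was at 0.18 (SE 0.26, adjusted p = 0.612) and in non-scoliotic fish at 0.49 (SE 0.56, adjusted p = 0.517), which became −0.09 without AB fish 3 and −0.41 without non-scoliotic fish 3. *krt5* was higher in *kif7*co63/+ (1.66, SE 0.54, adjusted p = 0.0425), on 57 to 156 reads per fish against 16 to 60 in AB. This call was lost in 4 of the 6 fits that left out a fish and with the replicate block (1.68, adjusted p = 0.0915). In scoliotic fish *krt5* was called against AB only without AB fish 1 (1.78, adjusted p = 0.0367).

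Of the chromosome 6 genes, *krt4* had nearly level values in AB, *kif7*co63/+ (−0.06, SE 0.28, edgeR adjusted p = 0.877) and scoliotic fish (0.01, SE 0.11, adjusted p = 0.93) and was 169-fold lower in non-scoliotic fish (−7.40, SE 0.31, adjusted p = 6.62e-05). Without *kif7*co63/+ fish 1 its value in *kif7*co63/+ was −0.51 (adjusted p = 0.0495). zgc:158846 was higher than in AB in *kif7*co63/+ (3.06, SE 0.40, adjusted p = 0.000934) and scoliotic fish (2.54, SE 0.16, adjusted p = 0.00013) and lower in non-scoliotic fish (−4.19, SE 0.30, adjusted p = 0.00028). zgc:77517 was higher in *kif7*co63/+ (6.61, SE 0.62, adjusted p = 0.000204) and scoliotic fish (7.20, SE 0.25, adjusted p = 6.09e-05) and was at 0.20 (SE 0.49, adjusted p = 0.773) in non-scoliotic fish. AB fish therefore combined a high level of *krt4* with a level of zgc:77517 as low as in non-scoliotic fish. *krt4*, zgc:158846 and zgc:77517 were also the 3 members called between scoliotic and non-scoliotic fish (0.38% of all genes). The other 7 had log2 fold changes of −0.07 to 1.45, with edgeR adjusted p-values from 0.789 to 0.997. From the same libraries, the paper lists the 3 called genes as its top upregulated transcripts in this comparison. The members were chosen with earlier results of these data known, so these 3 calls are not separate evidence. The paper states that its RT-qPCR, on the same RNA, did not reflect the higher *krt4* and zgc:158846 in scoliotic fish. It describes the *krt4* RT-qPCR as too variable between specimens for a definite conclusion. The paper's RT-qPCR intervals for all 3 genes between scoliotic and non-scoliotic fish included no change. Against AB they included no change for all 3 genes in non-scoliotic fish and for zgc:77517 in scoliotic fish. For *krt4* and zgc:158846 in scoliotic fish the intervals against AB lay above no change. By tissue staining, the paper reports more keratin in dermis, muscle and intervertebral disc of scoliotic than of non-scoliotic fish. That stain is of protein and is not reported for single keratin genes.

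Differences between genotypes at 4 dpf: 3 keratins differed between *kif7*co63/+ and AB pools, 1 higher and 2 lower (6.21% of all genes, 3.84% higher and 2.37% lower), with 2 pools in each group. *cyt1l* was higher in *kif7*co63/+ (1.23, SE 0.26, edgeR adjusted p = 0.0302), while zgc:158846 (−2.96, SE 0.39, adjusted p = 0.00642) and zgc:77517 (−3.63, SE 0.81, adjusted p = 0.0368) were lower. In a fit of all 18 libraries 0 of the 3 were called, with adjusted p-values of 0.539, 0.071 and 0.0946, DESeq2 did not call zgc:77517 (adjusted p = 0.13), and the *cyt1l* call was also lost without *kif7*co63/+ pool 2 (0.83, adjusted p = 0.13). At 6 wpf the 2 chromosome 6 genes were higher, not lower, in *kif7*co63/+ than in AB. Between *kif7*co63/co63 and AB pools 0 keratins were called by edgeR (0.509% of all genes), 3 had an unadjusted p under 0.05, and DESeq2 called 1, *cyt1l* (adjusted p = 0.0286; 2.33% of all genes by DESeq2). zgc:158846, at −3.03 (SE 1.05, edgeR adjusted p = 0.483), was called without the filter on low counts (adjusted p = 0.0156). Leaving out 1 of the 4 pools, it ran from −6.29 to −2.12. With the replicate block zgc:158846 was called at −4.10 (adjusted p = 2.44e-08). zgc:77517, at −2.07 (adjusted p = 0.885), was called with the block at −3.35 (adjusted p = 2.11e-05). With 4 pools the block left little from which to estimate variation, and pool numbers were not taken as pairs. Without *kif7*co63/co63 pool 1, *krt4* was at −4.86, zgc:158846 at −6.29, zgc:77517 at −5.91 and *krt92* at 0.99. Without pool 2, *cyt1l* was at 1.99, *krt91* at 1.00, *cyt1* at 0.67, *krt15* at −1.01, zgc:158846 at −2.12 and zgc:77517 at −1.13, with *krt4* at 0.12 and *krt92* at −0.86. With 1 homozygous pool left, variation came from the AB pools only. These differed less from each other than the homozygous pools did (chi-square per gene 58.5 against 502).

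Where single libraries stood apart: The 2 *kif7*co63/co63 pools differed 31.7-fold in *krt4*, 18.3-fold in zgc:158846 and 27.9-fold in zgc:77517, with pool 1 higher in all 3. *krt92* was 3.56-fold higher in pool 2, and the other members differed by at most 2.1-fold. Among the fish, scoliotic fish 2 had 3.67 times the mean of the other 2 scoliotic fish for *cyt1* and 3.71 times for *cyt1l*, while the other 8 members were at 0.745 to 1.26 times. Of 21691 genes, 253 (1.17%) were at least 3 times higher in that fish. Without it, the age changes in scoliotic fish were −4.51 (edgeR adjusted p = 0.0125) for *cyt1* and −6.99 (adjusted p = 0.00862) for *cyt1l*.

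Genes with the most similar pattern: For each member, the gene outside the 10 with the highest Pearson r of log2 CPM was listed, as a description over libraries that share age and genotype groups. Over the 18 libraries, *cyt1l* was most like zgc:136930 (r = 0.987), another filament-family gene, and *cyt1* most like AL954682.1 (r = 0.984), with the keratin *krtt1c19e* next (r = 0.981). *krt8* was most like *bnip3lb* (r = 0.959) and *krt91* most like CR318588.2 (r = 0.928). *krt92* was most like *serbp1a* (r = 0.913), *krt15* like *stard8* (r = 0.885) and *krt5* like *smim19* (r = 0.838). Of the chromosome 6 members, *krt4* was most like *myl6* (r = 0.939, Spearman rho 0.552) and zgc:158846 like *endou* (r = 0.934, rho 0.856), both on chromosome 6. zgc:77517 was most like *msrb1a* on chromosome 3 (r = 0.866). Over the 12 fish, 2 of the 3 chromosome 6 members were most like a gene of the same stretch of chromosome 6, *krt4* like *tns2b* (r = 0.992, 39011703 to 39051319) and zgc:77517 like *prss60.2* (r = 0.989, 39098397 to 39105480). For zgc:158846 the first was *msra* on chromosome 20 (r = 0.937) and the second *endou* (r = 0.935), on chromosome 6 from 39905021 to 39912440. Spearman rho was lower, at 0.762 for *krt4* with *tns2b* and 0.868 for zgc:77517 with *prss60.2*. For zgc:158846 it was 0.727 with *msra* and 0.839 with *endou*. Of the other members over the 12 fish, *krt8* was most like *ckmb*, a skeletal muscle marker (r = 0.978, Spearman rho 0.797), and *krt91* like *ppp1r13ba* (r = 0.969). *cyt1l* was most like si:dkey-164f24.2 (r = 0.967), *krt15* like *rpl36a* (r = 0.956) and *cyt1* like zgc:162707 (r = 0.936). The first gene was *znf1155* for *krt92* (r = 0.927) and *trim69* for *krt5* (r = 0.91).

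Other keratins and epidermal genes: A further 15 genes carry a keratin name or description, 1 of which, *tchp*, is a keratin-binding protein. Of the 14 tested between AB fish and pools, 3 were higher and 5 lower at 6 wpf, with a median log2 fold change of −0.37 (of all genes, 58.6% passed, 30.3% higher and 28.2% lower). *krtt1c19e*, a type I gene of the chromosome 19 region, fell by 4.50 (SE 0.18, edgeR adjusted p = 1.34e-06), from 2342 and 2476 CPM to between 89.9 and 129 CPM, and *krt1-c5* fell by 2.76 (SE 0.16, adjusted p = 9.62e-06). *krt93* rose by 5.16 (SE 0.35, adjusted p = 1.93e-05), from at most 0.708 to at least 17.4 CPM, and *krt94* rose by 1.22 (SE 0.13, adjusted p = 0.000168). *krt93* and *krt94* also rose in the other 3 age comparisons, *krt93* by 3.20 to 5.08 (adjusted p = 8.14e-07 to 0.00524) and *krt94* by 2.04 to 2.20 (adjusted p = 9.38e-05 to 0.00799).

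Epidermal genes that are not keratins moved in the same AB comparison in both directions, where 30.3% of all genes were higher and 28.2% lower. Of 14 superficial and pan-epidermal genes tested, 1 rose and 6 fell, with a median of −0.28. *icn* rose from 361 and 408 CPM to 873 to 1142 CPM (1.34, SE 0.16, edgeR adjusted p = 0.000263), and *agr1* fell from 53.6 and 55.1 to 12.6 to 15.6 CPM (−1.96, SE 0.13, adjusted p = 1.53e-05). Of 15 basal epidermis and hemidesmosome genes, 1 rose and 10 fell, with a median of −0.76. *col17a1a*, a hemidesmosomal collagen, fell by 3.88 (SE 0.24, adjusted p = 1.16e-05) and *lamb4*, a laminin chain, by 2.58 (SE 0.12, adjusted p = 2.63e-06). Of 14 genes of desmosomes and the cornified envelope scaffold, 3 rose and 3 fell (median −0.14). Among these the plakins *evplb* and *ppl*, envoplakin and periplakin, fell by 2.50 (SE 0.20, adjusted p = 3.93e-05) and 1.50 (SE 0.20, adjusted p = 0.000452). Of 14 ionocyte and mucous cell genes 2 rose and 8 fell (median −0.86), among them *rhcga*, an ammonia transporter of ionocytes (−2.20, SE 0.24, adjusted p = 0.00018). Against AB at 6 wpf the lists differed. In *kif7*co63/+ fish 7 superficial genes were higher and 0 lower, 8 basal genes higher and 2 lower, 1 desmosome gene higher and 0 lower, and 2 ionocyte and mucous cell genes higher and 4 lower. In non-scoliotic fish the counts were 7 and 2, 11 and 0, 8 and 0, and 7 and 0, and in scoliotic fish 5 and 3, 8 and 0, 3 and 1, and 4 and 0. The shares of all genes called in these 3 comparisons were 36.2% (18.6% higher and 17.6% lower), 43.1% (21.2% and 21.9%) and 42.1% (19.2% and 23%).

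Markers of some other tissues also differed between the groups. The summed level of 15 skeletal muscle markers was 19774 to 22717 CPM in AB fish and 30428 to 44926 CPM in the 3 *kif7* groups. Of 11 ovary markers, all 11 rose with age in AB, *figla* and *buc* being at 0 in both AB pools, and their sum was 3.5 to 4.51 CPM in the pools, 3854 to 4316 in AB fish, 2167 to 3612 in *kif7*co63/+, 2.83 to 933 in non-scoliotic and 4.19 to 404 in scoliotic fish. Liver markers were at 5539 to 8513 CPM in the pools and 13647 to 24570 in the fish, with 11 of 12 higher and 0 lower in AB. Of 12 erythrocyte markers tested in AB, 7 rose and 4 fell, and of 14 muscle markers tested 3 rose and 4 fell (30.3% of all genes rose and 28.2% fell). Among the fish, liver markers were at 13647 to 17849 CPM in AB and *kif7*co63/+ and 20840 to 24570 in the *kif7*co63/co63 groups, and erythrocyte markers at 2048 to 3495 and 4713 to 6069 CPM. In *kif7*co63/+ against AB, 1 of 12 liver markers was higher and 2 lower, and of 10 erythrocyte markers 0 were higher and 1 lower (36.2% of all genes passed). Of 21 other intermediate filament genes 6 rose and 6 fell in AB (median −0.07), with *lmnl3*, a lamin-like gene, rising most clearly (4.11, SE 0.15, edgeR adjusted p = 1.01e-06). *lmnl3* was 5.08 to 7.16 CPM in the pools, 104 to 118 in AB fish and 71.4 to 118 in *kif7*co63/+ fish. In non-scoliotic and scoliotic fish it was only 5.97 to 22.4 and 5.01 to 11.2 CPM. The part of tissue make-up in the keratin differences was not tested.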

How the data were processed

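RNA from whole animals was poly-A selected and sequenced. The paper states that the Novogene company did the bioinformatic filtering, and that reads were mapped to GRCz11 with HISAT2 and tested with DESeq2. Raw counts per gene were deposited with no normalization. The submitters' processing notes name fastp, HISAT2, StringTie, featureCounts and DESeq2 without their roles; the annotation release and use of strand are not given in the sources used here. A second deposited table, with fold changes and p-values of a comparison the authors made between scoliotic and heterozygous fish, and with 18 further per-sample columns, was not used.

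Counts were tested with edgeR 4.0.16 in R 4.3.3: TMM scaling, a filter on low counts (filterByExpr, minimum count 10, minimum total 15), the quasi-likelihood test and Benjamini-Hochberg adjustment over all genes tested. Each fit held the 2 groups compared, and differences between age changes came from 1 fit of 18 libraries. SE is the log2 fold change divided by the square root of F. Replicates within a group are separate pools or fish. Alternatives were DESeq2 1.42.0, RLE and library-total scaling, other filters, a replicate block, a fit of all 18 libraries and leaving out each library. The test was tried on simulated counts. Correlations used log2 CPM with a prior count of 2, over genes with a mean of at least 1 CPM. All 10 keratins were named in each comparison; of each other list, the 3 genes with the smallest adjusted p in each direction in AB fish against AB pools were eligible to be named, and likeness was listed for each member. The members and the gene lists were chosen with earlier results of these data known. Protein and promoter sequences were not analysed here. Python 3.11.15, pandas 2.3.3 and matplotlib 3.10.9 were used for tables and plots.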

Additional observations from a re-analysis of the deposited data

Results flagged for a closer look

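In 5 cases the age change of a keratin differed between a *kif7* group and AB by a test of the difference itself (edgeR quasi-likelihood contrast, 18 libraries). For zgc:158846 the difference from AB was 6.07 in *kif7*co63/+ and 5.64 in scoliotic fish, on the log2 scale. For zgc:77517 it was 10.28 in *kif7*co63/+ and 9.33 in scoliotic fish. For *krt4* it was −6.53 in non-scoliotic fish. The 3 genes are neighbours on chromosome 6, all contrasts share the AB libraries, and those of the homozygous fish share 2 pools that differed 18.3-fold to 31.7-fold in these genes.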

How the results depend on the processing

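Of 130 tests of a keratin, 50 were called; 36 of these kept their direction and call in every alternative, 14 lost the call in at least 1, and 0 changed sign. Leaving out each library in turn gave 5 to 6 keratins called with age in AB, 7 to 8 in *kif7*co63/+, 3 to 7 in non-scoliotic and 1 to 6 in scoliotic fish; against AB at 6 wpf 4 to 6, 4 to 5 and 6 to 8; 3 between scoliotic and non-scoliotic fish; at 4 dpf 2 to 4 in *kif7*co63/+ and 1 to 6 in *kif7*co63/co63; and 2, 1 to 3 and 2 to 4 for the differences between age changes. A group left with 1 pool was assumed to vary like the other group, and the number of all genes called changed in these fits too. With age in scoliotic fish the replicate block gave 1 call and a fit of all 18 libraries 4. For *kif7*co63/+ against AB pools the fit of all 18 libraries gave 0. For *kif7*co63/co63 against AB pools DESeq2 and no filter gave 1 each and the replicate block 2.

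In 0 of the 10 pairwise comparisons did every same-numbered pair of libraries have deviations correlated over 0.1, so the numbers were not taken as pairs. Correlations were −0.15 to 0.06 except between scoliotic and non-scoliotic fish, where they were 0.59, 0.42 and 0.06. The replicate block gave 6, 8, 3 and 1 keratins with age, 5, 5 and 7 against AB at 6 wpf, 3 between scoliotic and non-scoliotic fish, 3 and 2 at 4 dpf and 2, 1 and 2 for the differences. A crossed pairing of the homozygous and AB pools, chosen after seeing the data, gave 2 calls.

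The sign changed in an alternative fit for these values, which were not called in the main test. Some of them passed the threshold in a fit that left out 1 library, such as *krt4* in *kif7*co63/+ fish against AB (−0.51). With library totals only, the age changes were −0.07 (*krt91*) and −0.04 (*krt92*) in AB, −0.08 (*krt92*) in *kif7*co63/+, −0.15 (*krt91*) and −0.27 (*krt92*) in non-scoliotic and −0.07 (*krt91*) in scoliotic fish; *krt4* in scoliotic fish against AB was −0.04; and the differences from the AB age change were −0.04 (*krt92*) in *kif7*co63/+, −0.05 (*krt5*), −0.02 (*cyt1*), −0.07 (*krt91*) and −0.09 (*krt15*) in non-scoliotic and −0.10 (*krt15*) in scoliotic fish. RLE scaling and DESeq2 each gave −0.01 for *krt92* in *kif7*co63/+ and for *krt15* in scoliotic fish. With the replicate block the age change of *krt8* in AB was 0.02 and of *krt4* in scoliotic fish 0.57, and *krt15* was 0.07 between scoliotic and non-scoliotic fish. Leaving out 1 library, the age changes ran from −1.11 to 0.25 (*krt5*), −0.19 to 0.05 (*krt8*) and −0.02 to 0.26 (*krt91*) in AB, −0.65 to 0.10 (*krt5*) in *kif7*co63/+, −0.63 to 1.24 (*krt92*) in non-scoliotic, and −1.90 to 3.05 (*krt4*) and −0.37 to 1.50 (*krt92*) in scoliotic fish. At 6 wpf against AB they ran from −0.51 to 0.13 (*krt4*) and −0.09 to 0.34 (*cyt1*) in *kif7*co63/+, −0.41 to 0.81 (*cyt1*) and −0.04 to 0.37 (zgc:77517) in non-scoliotic, and −0.04 to 0.10 (*krt4*) in scoliotic fish. Between scoliotic and non-scoliotic fish they ran from −0.27 to 0.43 (*krt5*), −0.13 to 0.03 (*krt8*), −0.11 to 0.22 (*krt91*) and −0.36 to 0.33 (*krt15*). At 4 dpf they ran from −0.35 to 0.05 (*krt15*) in *kif7*co63/+ and from −4.86 to 0.12 (*krt4*), −0.05 to 0.67 (*cyt1*) and −0.86 to 0.99 (*krt92*) in *kif7*co63/co63. The differences from the AB age change ran from −0.38 to 0.99 (*krt5*) and −0.05 to 0.13 (*krt92*) in *kif7*co63/+; from −0.66 to 0.72 (*krt5*), −0.71 to 0.59 (*cyt1*), −0.07 to 1.60 (*cyt1l*), −0.09 to 0.26 (*krt91*), −0.73 to 1.10 (*krt92*), −0.29 to 0.40 (*krt15*) and −2.03 to 2.16 (zgc:158846) in non-scoliotic; and from −0.04 to 4.94 (*krt4*), −0.63 to 0.74 (*krt5*), −0.02 to 0.30 (*krt91*), −0.49 to 1.34 (*krt92*) and −0.11 to 0.15 (*krt15*) in scoliotic fish. The cause was not tested.

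Library totals moved the median of all genes to −0.19, −0.25, −0.38 and −0.36 in the 4 age comparisons, and to −0.15 for the non-scoliotic difference from AB. Higher against lower calls with age were then 5986 and 7999 in AB (7116 and 6631 with TMM), 5156 and 8406 in *kif7*co63/+ (6625 and 5989), 1895 and 4675 in non-scoliotic (2494 and 2775) and 1671 and 3845 in scoliotic fish (2254 and 2088). Over all genes, DESeq2 called 7906 and 7099 in non-scoliotic and scoliotic fish with age against 5269 and 4342, 424 against 84 between them, and 2483 against 1381 and 626 against 114 in *kif7*co63/+ and *kif7*co63/co63 pools against AB pools. The fit of all 18 libraries called 10479, 9951, 135, 735 and 642 in these comparisons, and the replicate block 3006, 1843, 29, 1248 and 526. With 2 or 3 libraries a group and whole animals, *krt5* (16 to 156 reads) and zgc:77517 at its lowest (10 reads) had the least precise levels.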

Other observations

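Other filament-family genes showed the opposite change with age to *cyt1* and *cyt1l*. They were picked after their values were seen and no role is assigned to them. wu:fk65c09, on chromosome 1, was at most 0.25 CPM in the 6 pools and 127 to 854 CPM in the 12 fish, with log2 fold changes of 11.16 to 13.10 in the 4 age comparisons (edgeR adjusted p = 3.26e-07 to 0.0041). zgc:172323, on chromosome 16, went from 0.793 to 2.35 CPM in the pools to 87.3 to 168 CPM in the fish, rising by 5.84 to 6.71 (adjusted p = 2.2e-07 to 0.00249). Neither gene overlapped between pools and fish.

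3 others were high in pools, with the same scoliotic fish 2 above its group as for *cyt1*. zgc:136930 was 1289 to 2077 CPM in the pools and 48.9 to 683 CPM in the fish, and fell in all 4 age comparisons, by 2.38 to 4.14 (edgeR adjusted p = 4.67e-06 to 0.049). si:dkey-183i3.5 fell by 3.28 in AB, 2.60 in *kif7*co63/+ and 2.91 in non-scoliotic fish, and its value in scoliotic fish was −1.81 (adjusted p = 0.0983). For *krtt1c19e* the value in scoliotic fish was −2.08 (adjusted p = 0.115), and in the other comparisons it changed by −4.50 to −3.80. In scoliotic fish 2 these genes were 3.74, 3.78 and 5.39 times the mean of the other 2 scoliotic fish.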
